A study of Mus musculus with 50 samples.

Results

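The Hox cluster genes are the homeobox genes of the 4 mammalian Hox clusters, and they were taken here from the deposited expression tables as genes named Hoxa, Hoxb, Hoxc or Hoxd with a number. There are 38 such genes described here among 24412 in the first table and the same 38 among 24411 in the second. HoxA holds 10 of them, on chromosome 6 from 52162417 to 52260880 in the GENCODE annotation of GRCm38 (mm10), HoxB 10 on chromosome 11, HoxC 9 on chromosome 15 and HoxD 9 on chromosome 2. The measurement is polyadenylated RNA sequencing of mouse embryonic stem cells of the TT2 strain, in TPM (transcript abundance), a unit that scales each gene by its length and each library by its total.

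The 50 libraries form 25 groups of 2 libraries. The first table has 18 libraries: control cells, Setdb1-KO, Suv39h1/2-DKO, Suv39h1/2 Setdb1-TKO, G9a-KO, G9a Setdb1-DKO, G9a Suv39h1/2-TKO, G9a Suv39h1/2 Setdb1-QKO (QKO below) and a Dux-KO line of the QKO genotype. KO, DKO, TKO and QKO name knockouts of the genes given before them. The second table has 32 libraries of the same 8 genotypes from control to QKO, all of which, controls included, carry a Tet-on-Dux transgene and Dux-KO in the genotype label. Dux is a transcription factor of the early embryo, and the transgene is induced by doxycycline. Each genotype was measured without doxycycline and with it, at a label of 0.2 for control and Setdb1-KO and of 1 for the other 6, with no unit given. Titles with OHT belong to the groups without Setdb1 and titles with NT to the others, so Setdb1 loss and whatever the OHT label denotes cannot be told apart. The labels do not say whether a line is 1 clone or whether the 2 libraries of a group come from separate cultures, so p-values measure the spread between these libraries, which may be technical.

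Hox genes encode transcription factors that give cells their position along the head-to-tail axis. They lie in order along each cluster, with low-numbered genes used toward the head and high-numbered genes toward the tail, and in embryonic stem cells they are mostly kept silent by Polycomb complexes. Setdb1, Suv39h1 and Suv39h2, and G9a (the product of Ehmt2) are the enzymes removed here: each adds methyl groups to lysine 9 of histone H3, a mark of repressed chromatin. Retinoic acid and the Cdx factors are known activators of Hox genes.

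The transcripts of the targeted genes followed the labels in level, though none disappeared. Ehmt2 lay between 7.38 and 30.2 TPM in the 10 libraries of the first table labelled as lacking G9a and between 82.5 and 104 TPM in the other 8, and Setdb1 between 19.8 and 36.5 TPM against 41.4 to 53.2 TPM. The ranges of Suv39h1 (11.1 to 22.9 against 21.3 to 34.0 TPM) and Suv39h2 (12.1 to 17.1 against 14.4 to 27.2 TPM) touched or overlapped. In the second table Ehmt2 was at 1.95 to 6.58 TPM against 53.2 to 196 TPM, and the ranges of Setdb1 and Suv39h1 did not overlap either, while those of Suv39h2 did (6.88 to 12.4 against 12.1 to 24.3 TPM). The stem cell factor Pou5f1 was at 1954 to 2621 TPM in the first table and at 1248 to 2277 TPM in the second. TPM keeps no depth, so the read depth is unknown. A library of the first table had 11855 to 13274 genes at 1 TPM or more, and one of the second had 11740 to 12688. Among the 32 libraries of the second table, 6 stand apart by a high level of Snhg genes, which host small nucleolar RNAs, with a mean log2 level of 4.46 to 4.94 against 2.57 to 3.49 in the other 26. The 6 are replicate 1 of the control without doxycycline and replicate 2 of Setdb1-KO without and with doxycycline, of G9a-KO with doxycycline, and of G9a Setdb1-DKO without and with doxycycline. All 18 libraries of the first table were at a high level too, from 4.60 to 5.22.

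Few Hox genes had measurable RNA in these cells. Between 3 and 10 of the 38 reached 1 TPM in a library of the first table and between 2 and 10 in the second, and 20 genes stayed below 1 TPM in every library. Hoxc11 and Hoxd3 were listed at 0 in all 18 libraries of the first table. A gene was tested if it reached 1 TPM in at least 2 libraries of a table, which held for 12 members in the first and for 11 in the second, with 8 tested in both and 15 in either. By cluster, the genes tested in either table were 7 of the 10 HoxA genes, 3 of 10 HoxB genes, 1 of 9 HoxC genes and 4 of 9 HoxD genes. The HoxA genes tested lie across the cluster from Hoxa2 to Hoxa10, while the single HoxC gene is Hoxc13, at the tail end of its cluster.

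**Figure D1:**
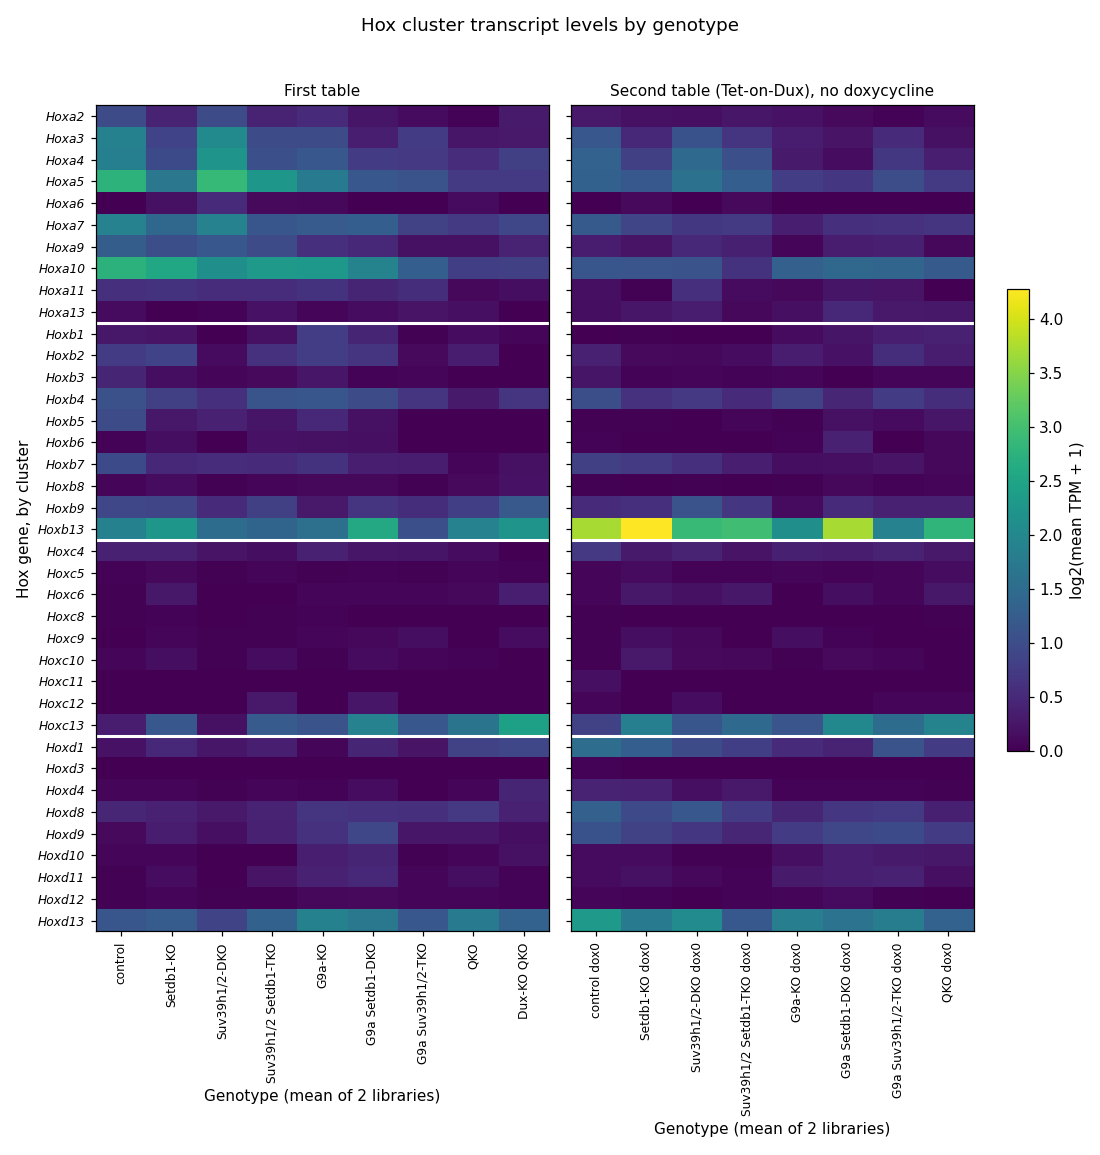
Rows are the 38 Hox genes by cluster and number, columns are genotypes, and colour is the log2 of the mean TPM of 2 libraries plus 1. The left panel is the first table and the right panel the second without doxycycline. The brightest rows on the left are Hoxa3, Hoxa4, Hoxa5, Hoxa7, Hoxa10, Hoxb13, Hoxc13 and Hoxd13. On the right they are Hoxb13, Hoxc13 and Hoxd13, and Hoxd1 and Hoxd8 are in the range of the brighter HoxA rows. Most HoxB, HoxC and HoxD rows are dark.

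In the first table several HoxA genes fell in cells without G9a or Setdb1, and their summed level was lowest in cells without all 4 enzymes. Summed over the 10 HoxA genes, the controls had 25.3 and 19.7 TPM and Suv39h1/2-DKO 24.1 and 20.4 TPM. Setdb1-KO had 12.1 and 13.2 TPM, Suv39h1/2 Setdb1-TKO 14.7 and 11.2 TPM and G9a-KO 11.7 and 11.3 TPM. G9a Setdb1-DKO had 7.004 and 7.84 TPM, G9a Suv39h1/2-TKO 5.44 and 5.71 TPM and QKO 3.41 and 2.89 TPM. The groups without G9a did not overlap with the controls in this sum, nor did Setdb1-KO and Suv39h1/2 Setdb1-TKO, while Suv39h1/2-DKO did. The share of all genes with such gaps was not counted, here or for the single genes below. In bulk RNA, fewer cells of a type and less RNA per cell cannot be told apart.

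Hoxa5, which patterns the neck and thorax and the lung, was the HoxA gene with the highest single value in this table. It had 6.70 and 4.92 TPM in the controls, 1.94 and 2.53 in Setdb1-KO, 7.36 and 5.22 in Suv39h1/2-DKO and 4.36 and 3.20 in Suv39h1/2 Setdb1-TKO. It had 3.07 and 1.81 TPM in G9a-KO, 1.35 and 1.11 in G9a Setdb1-DKO, 1.20 and 1.09 in G9a Suv39h1/2-TKO and 0.846 and 0.460 in QKO. Both libraries of every group without G9a lay below both controls, as did those of Setdb1-KO and Suv39h1/2 Setdb1-TKO. Fold changes here are differences on the log2(TPM + 1) scale, which understates changes of low genes, and adjusted p is limma's with Benjamini-Hochberg adjustment over all genes tested. The log2 fold change of Hoxa5 against the controls was -1.07 ± 0.21 (SE) in Setdb1-KO (adjusted p = 0.00131), -1.60 in G9a Setdb1-DKO (adjusted p = 1.78e-05), -1.66 in G9a Suv39h1/2-TKO (adjusted p = 2.96e-05) and -2.04 in QKO (adjusted p = 1.42e-06). In G9a-KO it was -0.997, just short of the fold of 1 that a call needs beside an adjusted p below 0.05 (adjusted p = 0.00167).

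Hoxa3, a regulator of the pharyngeal arches and thymus, was at 2.78 and 2.57 TPM in the controls and 2.86 and 3.32 TPM in Suv39h1/2-DKO. Its level was 0.731 and 0.882 TPM in Setdb1-KO, 0.943 and 1.04 in G9a-KO, 0.192 and 0.361 in G9a Setdb1-DKO, 0.695 and 0.712 in G9a Suv39h1/2-TKO and 0.263 and 0.122 in QKO. All 10 of these libraries were below the controls. Its log2 fold change was -1.02 ± 0.15 (SE) in Setdb1-KO (adjusted p = 0.00011), -1.53 in G9a Setdb1-DKO (adjusted p = 8.09e-07), -1.11 in G9a Suv39h1/2-TKO (adjusted p = 5.01e-05) and -1.62 in QKO (adjusted p = 3.98e-07). The annotated Hoxa3 gene, 52169062 to 52213336 on the minus strand, spans Hoxa4, Hoxa5 and Hoxa6 on the same strand, so how reads were shared among them is uncertain.

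Hoxa10, a posterior HoxA gene known for its part in the uterus and the hindlimb, followed another order. It had 6.36 and 5.14 TPM in the controls and 4.44 and 5.35 TPM in Setdb1-KO, where the groups overlapped. Its level was 3.28 and 3.45 TPM in Suv39h1/2-DKO, 3.42 and 4.30 in G9a-KO, 2.62 and 2.93 in G9a Setdb1-DKO, 1.40 and 1.43 in G9a Suv39h1/2-TKO and 0.521 and 0.952 in QKO. It was the only one of 12 members to pass an adjusted p of 0.05 at any fold in Suv39h1/2-DKO, where 2.18% of all genes did, with a log2 fold change of -0.62 ± 0.15 (SE, adjusted p = 0.0499). The fold change was -1.48 in G9a Suv39h1/2-TKO (adjusted p = 4.43e-06) and -1.96 in QKO (adjusted p = 7.41e-08), the second largest among the members in that comparison.

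Hoxa4 had 3.32 and 1.83 TPM in the controls, 0.638 and 0.710 in G9a Setdb1-DKO, 0.733 and 0.533 in G9a Suv39h1/2-TKO and 0.605 and 0.293 in QKO. Its log2 fold changes there were -1.06, -1.10 and -1.28 (SE 0.18; adjusted p = 0.00022, 0.000356 and 3.72e-05). The 2 controls lay apart for this gene. Without control replicate 1 the fold changes were -0.76, -0.80 and -0.98 and no longer met the fold, with adjusted p = 0.00507, 0.00789 and 0.000798.

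Hoxa7 and Hoxa9, neighbours in the middle of the cluster that act in the trunk and in blood stem cells, met the fold where G9a and Suv39h1/2 were both lost. They were also below both controls in the other groups without G9a, and in Setdb1-KO and Suv39h1/2 Setdb1-TKO. Hoxa7 had 3.01 and 2.47 TPM in the controls, 1.41 and 1.26 in G9a-KO, 1.255 and 1.595 in G9a Setdb1-DKO, 0.680 and 0.920 in G9a Suv39h1/2-TKO and 0.708 and 0.605 in QKO. Hoxa9 had 1.60 and 1.21 TPM in the controls, 0.374 and 0.597 in G9a-KO, 0.397 and 0.411 in G9a Setdb1-DKO, 0.103 and 0.194 in G9a Suv39h1/2-TKO and 0.0615 and 0.233 in QKO. None of these knockout libraries reached the control range. Hoxa9 passed the filter through 6 libraries of 4 groups, all with G9a. Its values without G9a, adjusted p included, are therefore a description. In G9a Suv39h1/2-TKO and QKO the log2 fold change of Hoxa7 was -1.06 and -1.17 (SE 0.16, adjusted p = 0.000131 and 1.98e-05), and that of Hoxa9 was -1.06 and -1.07 (SE 0.15, adjusted p = 0.000106 and 3.99e-05). Without control replicate 1 Hoxa9 was at -0.95 in both and Hoxa7 at -0.95 in G9a Suv39h1/2-TKO, short of the fold, with adjusted p of 0.00364 or less. Hoxa7 without G9a Suv39h1/2-TKO replicate 1 (-0.96) and Hoxa9 without QKO replicate 1 (-0.96) also fell short of it.

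Hoxa2, a hindbrain gene, was tested on the strength of 2 libraries that reached 1 TPM, a control at 1.09 TPM and a Suv39h1/2-DKO library at 1.01 TPM; in QKO it was at 0.0564 and 0 TPM. A member that passes the filter only through the groups in which it is high has to be lower in others, so these values are a description, and the counts over members tested are read in the same way. So are Hoxa9, which reached 1 TPM only in groups with G9a, and Hoxc13, which did so in neither the controls nor Suv39h1/2-DKO.

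**Figure D2:**
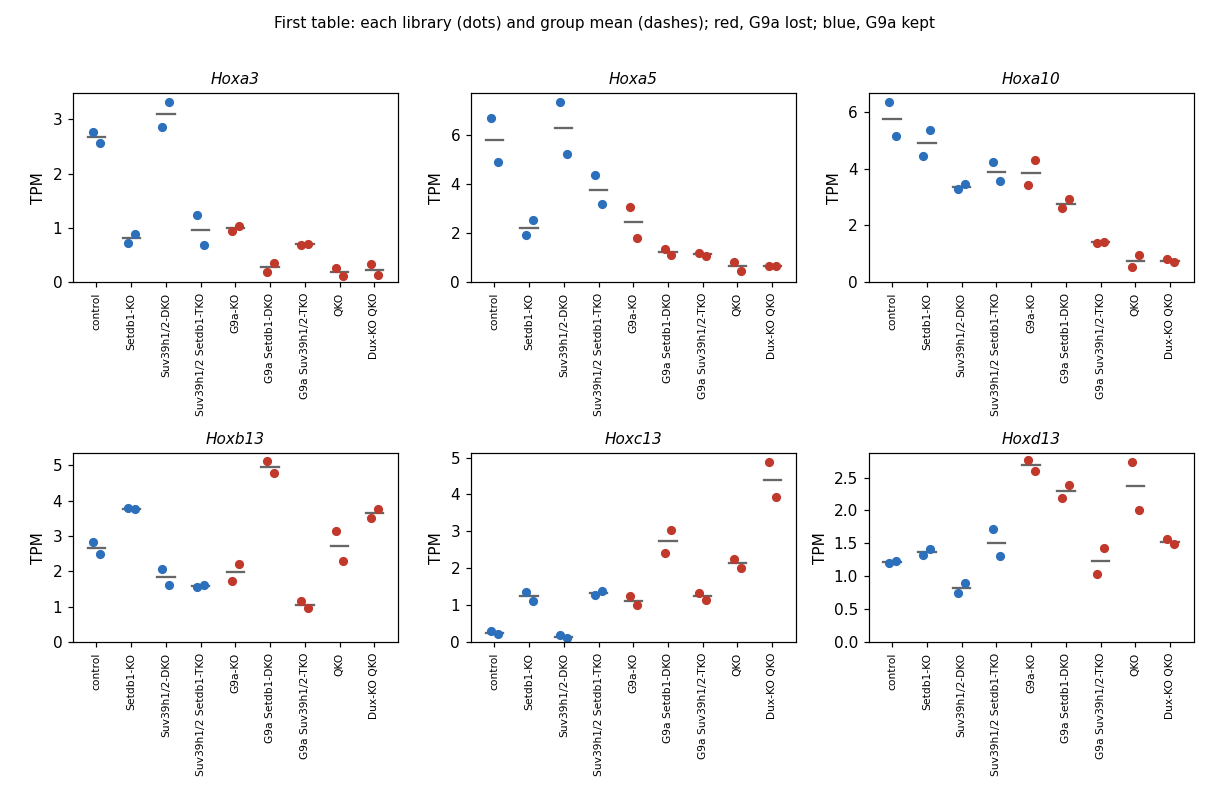
Each panel is 1 gene of the first table, with TPM from 0 on the y axis and the 9 genotypes on the x axis. Dots are libraries, dashes are means of 2, and red marks groups without G9a. For Hoxa3, Hoxa5 and Hoxa10 every group without G9a lies below both controls, as does Suv39h1/2 Setdb1-TKO. Setdb1-KO does so for Hoxa3 and Hoxa5. Hoxc13 is highest in the Dux-KO QKO libraries at 4.88 and 3.93 TPM.

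The genes of paralog group 13 lie at the tail end of the clusters and pattern the most posterior body. Those tested, Hoxb13, Hoxc13 and Hoxd13, rose in some of the groups in which HoxA genes fell. Hoxc13, a regulator of hair and nail, was at 0.298 and 0.214 TPM in the controls and 0.184 and 0.109 TPM in Suv39h1/2-DKO. It was above the controls in every other group: 1.36 and 1.12 TPM in Setdb1-KO, 1.28 and 1.39 in Suv39h1/2 Setdb1-TKO, 1.25 and 1.01 in G9a-KO, 2.42 and 3.03 in G9a Setdb1-DKO, 1.33 and 1.15 in G9a Suv39h1/2-TKO and 2.25 and 2.01 in QKO. It rose by a log2 fold change of 1.57 ± 0.13 (SE) when G9a and Setdb1 were both lost (adjusted p = 2.04e-07) and 1.32 in QKO (adjusted p = 1.21e-06), and no other member was called higher in those groups. In Setdb1-KO and G9a-KO alone the fold changes were 0.83 and 0.76 (adjusted p = 0.000269 and 0.000403), under the fold.

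Hoxd13, which shapes the digits, had 1.20 and 1.23 TPM in the controls, 2.77 and 2.61 in G9a-KO, 2.20 and 2.39 in G9a Setdb1-DKO, 1.04 and 1.43 in G9a Suv39h1/2-TKO and 2.74 and 2.01 in QKO. It rose in G9a-KO (log2 fold change 0.74 ± 0.14 SE, adjusted p = 0.000686), G9a Setdb1-DKO (0.57, adjusted p = 0.00308) and QKO (0.60, adjusted p = 0.00196), under the fold, and its groups overlapped in G9a Suv39h1/2-TKO. Hoxb13, known for its part in the tail and the prostate, had 2.84 and 2.48 TPM in the controls, 3.79 and 3.76 in Setdb1-KO, 1.74 and 2.21 in G9a-KO and 5.13 and 4.77 in G9a Setdb1-DKO. It had 1.15 and 0.962 TPM in G9a Suv39h1/2-TKO and 3.14 and 2.29 TPM in QKO. Its rise of 0.70 ± 0.14 (SE) after loss of G9a and Setdb1 passed the test (adjusted p = 0.000782), as did its fall in G9a Suv39h1/2-TKO (-0.83, adjusted p = 0.000418). In QKO its groups overlapped (0.01, adjusted p = 0.944). Hoxa13 stayed at or below 0.196 TPM in every library of this table and was not tested.

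Counted over the members tested, the calls against the controls were as follows. Setdb1-KO had 0 higher and 2 lower of 12, where 6.28% of all genes tested were called in either direction and 2.16% lower, with a median log2 fold change of -0.24 against -0.12 over all genes. Suv39h1/2-DKO had 0 of 12 called by limma, beside 0.541% of all genes called. At an unadjusted p under 0.05 it had 4, beside 1546 of 13862 genes. Suv39h1/2 Setdb1-TKO had 0 of 12 called (6.99% of all genes were) and 8 at an unadjusted p under 0.05 (5844 of 13862 genes). G9a-KO had 0 of 12 called (9.26% of all genes were) and 11 at an unadjusted p under 0.05 (6053 of 13862 genes). In G9a-KO the members' median was -0.55 against -0.005 for all genes, and 7 members were lower and 2 higher at an adjusted p below 0.05 whatever the fold, where 18.1% and 16.9% of all genes were.

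The groups that lost G9a and at least 1 other enzyme had the larger member counts. G9a Setdb1-DKO had 1 higher and 3 lower of 12, beside 14.4% of all genes called in either direction, 9.58% higher and 4.8% lower, and medians of -0.685 and -0.04. G9a Suv39h1/2-TKO had 6 lower of 12, beside 6.72% of all genes in either direction and 2.07% lower, and medians of -0.96 and 0.02. QKO had 1 higher and 6 lower of 12, beside 15.6% of all genes in either direction, 10.1% higher and 5.42% lower, and medians of -1.01 and -0.05. The 6 lower were Hoxa3, Hoxa4, Hoxa5, Hoxa7, Hoxa9 and Hoxa10, each of them a HoxA gene. Hoxa9 passed the filter only through groups with G9a, so its place among them is a description. The comparisons share the same 2 controls, and each of these counts above 0 was lower without control replicate 1: 0 members were then called in Setdb1-KO, 3 in G9a Setdb1-DKO, 3 in G9a Suv39h1/2-TKO and 5 in QKO. Setdb1-KO also had 0 without its own replicate 1.

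Each enzyme was lost in 4 backgrounds, so its effect could be averaged over 4 pairs of groups. After G9a loss Hoxa5 fell, with an average of -1.20 ± 0.10 (SE, adjusted p = 1.68e-07). It was the only member called of 12, beside 5.94% of all genes in either direction and 1.39% lower. At any fold all 7 HoxA genes tested fell. Hoxa2 and Hoxa9 among them passed the filter only through groups with G9a, so their falls are a description. Among the other values, Hoxa10 averaged -0.87, Hoxa3 -0.84, Hoxa9 -0.74 and Hoxa4 -0.72, while Hoxc13 (0.72) and Hoxd13 (0.48) rose (adjusted p = 3.01e-05 or less for each). At any fold 23.8% of all genes fell and 30.5% rose, and the members' median was -0.52 against 0.04.

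Setdb1 loss gave 0 of 12 called by limma, beside 5.14% of all genes called. At an unadjusted p under 0.05 there were 9 members, beside 8955 of 13862 genes. Hoxa3 averaged -0.81 ± 0.07 (SE, adjusted p = 2.95e-07), Hoxa5 -0.67 and Hoxa4 -0.65, and 6 members fell at any fold, as did 35.8% of all genes. Hoxc13 (0.79 ± 0.07, adjusted p = 1.35e-07), Hoxb13 (0.53, adjusted p = 1.59e-05) and Hoxd13 (0.25, adjusted p = 0.00647) rose, and 24.8% of all genes did. Suv39h1/2 loss also gave 0 of 12 called (0.195% of all genes were), with 6 at an unadjusted p under 0.05 (4151 of 13862 genes). Under it Hoxa10 fell, with an average of -0.76 ± 0.08 (SE, adjusted p = 1.18e-05), as did Hoxb13 at -0.62 (adjusted p = 3.12e-05), and Hoxa7, Hoxb4 and Hoxd13 by less.

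**Figure D3:**
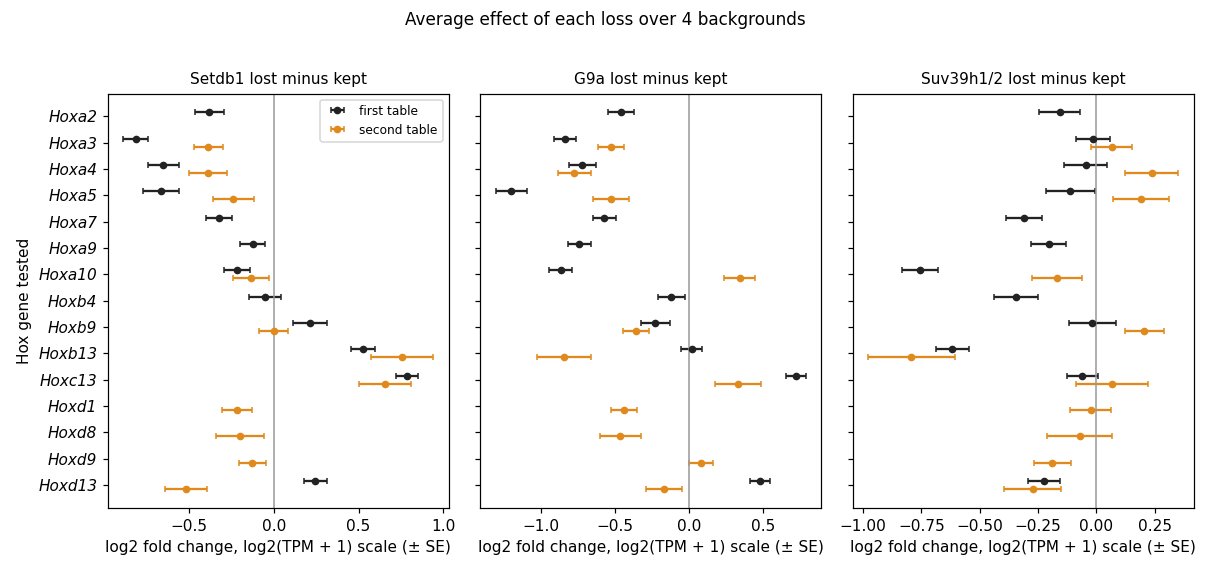
Points are average log2 fold changes on the log2(TPM + 1) scale with standard errors, for each Hox gene tested, after loss of Setdb1, G9a or Suv39h1/2 over 4 backgrounds. Black is the first table and orange the second; HoxA points lie left of 0 in the Setdb1 and G9a panels except Hoxa10 under G9a loss in the second table (0.34), and Hoxc13 lies right of 0 in both panels.

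The effect of Setdb1 loss on the log2(TPM + 1) scale differed with G9a state for some members. A test of the difference between Setdb1 loss without G9a and with it gave 0.71 ± 0.18 (SE) for Hoxa4 (adjusted p = 0.0116), 0.57 for Hoxa7 (adjusted p = 0.0166) and 0.47 for Hoxa3 (adjusted p = 0.0356). This scale compresses low values. As a ratio of mean TPM, the fall of Hoxa3 was 3.31-fold and 3.19-fold with G9a and 3.59-fold and 3.65-fold without it, so it was not smaller without G9a. That of Hoxa4 was 2.72-fold and 3.41-fold with G9a and 1.82-fold and 1.41-fold without it. Hoxb13 had 0.80 ± 0.14 (adjusted p = 0.000962); its mean TPM with Setdb1 loss was 1.42 and 0.862 times that without the loss where G9a was kept, and 2.51 and 2.57 times where it was lost. None of the 12 members was called at the fold of 1, beside 3.82% of all genes called. At an unadjusted p under 0.05 there were 7 members, beside 4654 of 13862 genes. At any fold 13% of all genes were higher in this test.

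Removing Dux from QKO cells left the HoxA genes low. The HoxA sum was 4.05 and 3.88 TPM in the Dux-KO QKO libraries, beside 3.41 and 2.89 TPM in QKO. Hoxa5 was at 0.651 and 0.644 TPM and Hoxa10 at 0.802 and 0.715 TPM. Hoxc13 was higher than in QKO, at 4.88 and 3.93 TPM (log2 fold change 0.78 ± 0.13 SE, adjusted p = 0.000372), and Hoxd13 lower, at 1.57 and 1.48 TPM (-0.41, adjusted p = 0.0264). Of 12 members 0 were called by limma, where 6.54% of all genes were. At an unadjusted p under 0.05 there were 3 members, beside 6857 of 13862 genes. The medians were 0.225 for the members and 0.22 for all genes.

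In the second table Hoxb13 had the highest level of the members described. The tables were normalised separately, so levels are not compared between them. All comparisons below are without doxycycline unless stated, and all share the 2 control libraries, of which replicate 1 has the high Snhg level. Leaving out the libraries of high Snhg level therefore leaves replicate 2 as the only such control, and fold changes from that fit rest on it. The HoxA sum was 7.39 and 7.75 TPM in the controls, 2.96 and 7.17 in Setdb1-KO, 2.93 and 3.81 in G9a-KO and 3.64 and 2.97 in QKO. QKO and G9a-KO overlapped, so the order of the first table did not repeat.

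Hoxa4 had 1.69 and 1.42 TPM in the controls, 0.378 and 0.0972 in G9a-KO, 0.0889 and 0.109 in G9a Setdb1-DKO, 0.508 and 0.716 in G9a Suv39h1/2-TKO and 0.342 and 0.213 in QKO. Every library without G9a lay below both controls, as did those of Setdb1-KO at 0.282 and 1.245 TPM. It fell, with a log2 fold change of -1.05 ± 0.23 (SE) in G9a-KO (adjusted p = 0.00205) and -1.22 in G9a Setdb1-DKO (adjusted p = 0.000314); in QKO it also fell (adjusted p = 0.00172), just short of the fold. Without the libraries of high Snhg level the G9a-KO value was -0.98 (adjusted p = 0.0136) and without G9a-KO replicate 2 it was -0.89 (adjusted p = 0.0448), both under the fold. Hoxa3 fell in 5 comparisons, with log2 fold changes of -0.66 to -0.98, under the fold, from 1.35 and 1.14 TPM in the controls to 0.212 and 0.299 TPM in G9a-KO. In this table Hoxa3 and Hoxa4 reached 1 TPM only in groups with G9a, so their falls without G9a are a description.

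Hoxd1, expressed in sensory neurons and at the head end of HoxD, was tested in this table only. It had 1.58 and 2.21 TPM in the controls, 0.343 and 0.502 in G9a-KO, 0.213 and 0.474 in G9a Setdb1-DKO and 0.725 and 0.676 in QKO. No knockout library in these 3 groups reached the controls. It fell, with a log2 fold change of -1.02 ± 0.18 (SE) in G9a-KO (adjusted p = 0.000314) and -1.11 in G9a Setdb1-DKO (adjusted p = 6.23e-05). Without control replicate 2 the values were -0.86 and -0.95 (adjusted p = 0.00853 and 0.00265), and without replicate 1 of each knockout -0.94 and -0.97, all under the fold.

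Hoxb13 had the highest Hox level of this table, at 11.03 and 13.4 TPM in the controls and 22.7 and 14.1 TPM in Setdb1-KO. It had 6.57 and 6.31 TPM in Suv39h1/2-DKO, 3.37 and 3.38 in G9a-KO, 16.6 and 7.75 in G9a Setdb1-DKO, 2.23 and 3.19 in G9a Suv39h1/2-TKO and 6.01 and 5.95 in QKO. In each of the 6 groups that hold 1 library of high Snhg level, that library had the lower Hoxb13 value and the higher Hoxc13 value of the pair; the part of that difference in the results was not tested. Hoxb13 fell, with a log2 fold change of -1.59 ± 0.37 (SE) in G9a-KO (adjusted p = 0.00397) and -1.84 in G9a Suv39h1/2-TKO (adjusted p = 0.0013). Without the libraries of high Snhg level these were -1.72 and -1.97, and the fall in QKO became -1.04. The control left in that fit was replicate 2, the higher for Hoxb13 at 13.4 TPM.

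Hoxc13 had 0.910 and 0.666 TPM in the controls, 1.63 and 3.59 in Setdb1-KO, 2.33 and 3.69 in G9a Setdb1-DKO and 2.65 and 2.88 in QKO. It rose by 1.15 ± 0.31 (SE) in G9a Setdb1-DKO (adjusted p = 0.00721) and 1.08 in QKO (adjusted p = 0.0105). In this table it reached 1 TPM in every group except the control line without and with doxycycline, so these rises are a description. Both calls depend on single libraries. Without G9a Setdb1-DKO replicate 2 the first was 0.90 (adjusted p = 0.0814), without control replicate 2 it was 1.05 (adjusted p = 0.0558), and without the libraries of high Snhg level 0.998, under the fold (adjusted p = 0.0394). The second was 1.03 without QKO replicate 2 (adjusted p = 0.0612) and 0.98 without control replicate 2 (adjusted p = 0.066). It was 1.18 without the libraries of high Snhg level. That fit leaves a single control library and a single library of G9a Setdb1-DKO.

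Hoxd13 was called lower in this table in Suv39h1/2 Setdb1-TKO only, though both libraries without Setdb1 lay below both with it in each of the 4 backgrounds. It had 3.14 and 4.72 TPM in the controls, 2.41 and 2.27 in Setdb1-KO and 2.825 and 2.29 in G9a-KO. Its level was 2.17 and 1.99 TPM in G9a Setdb1-DKO, 1.05 and 1.49 in Suv39h1/2 Setdb1-TKO and 1.51 and 1.59 in QKO. It fell, with a log2 fold change of -1.11 ± 0.24 (SE) in Suv39h1/2 Setdb1-TKO (adjusted p = 0.00508), but was -0.97 without replicate 1 of that group (adjusted p = 0.0754) and -0.87 without control replicate 2 (adjusted p = 0.0678). With the libraries of high Snhg level left out, the only control left was replicate 2, the higher for Hoxd13 at 4.72 TPM. The log2 fold change was then -1.34 in Suv39h1/2 Setdb1-TKO and -1.17 in QKO.

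**Figure D4:**
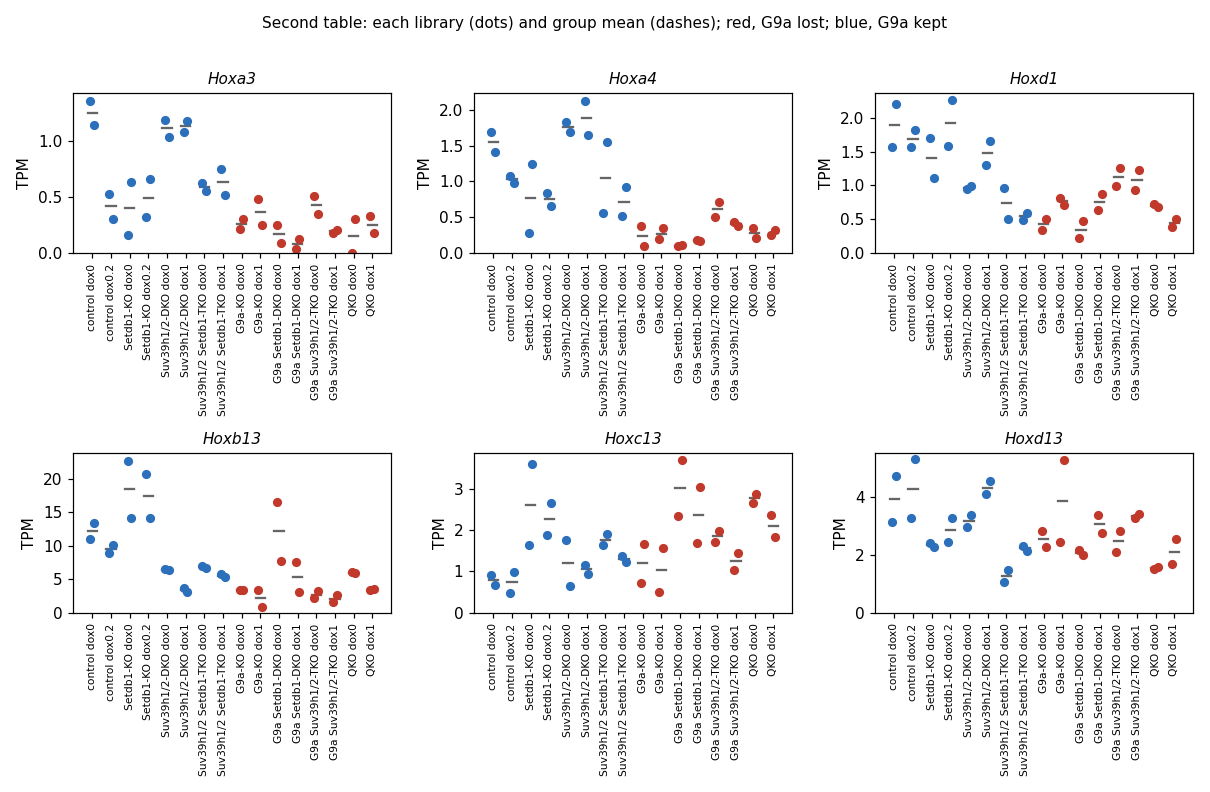
Each panel is 1 gene of the second table, with TPM from 0 on the y axis and the 8 genotypes without and with doxycycline on the x axis (the number after dox is the label's dose). Dots are libraries, dashes are means of 2, and red marks groups without G9a. For Hoxa3, Hoxa4 and Hoxd1 both libraries of G9a-KO and of G9a Setdb1-DKO without doxycycline lie below both controls. Those of Setdb1-KO without doxycycline do so for Hoxa3 and Hoxa4.

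Counts of called members in the second table were small. Against the controls limma called 0 of 11 in Setdb1-KO, beside 2.52% of all genes, and 0 of 11 in Suv39h1/2-DKO, beside 1.56%. At an unadjusted p under 0.05 there were 4 members in each, beside 2339 and 2822 of 13817 genes. Limma called 1 lower in Suv39h1/2 Setdb1-TKO, Hoxd13, beside 3.49% of all genes in either direction and 2.34% lower. It called 3 lower in G9a-KO (Hoxa4, Hoxb13 and Hoxd1), beside 7.98% in either direction and 4.91% lower. G9a Setdb1-DKO had 1 higher (Hoxc13) and 2 lower (Hoxa4 and Hoxd1), beside 13.2% of all genes, 7.35% higher and 5.88% lower. G9a Suv39h1/2-TKO had 1 lower, Hoxb13, beside 6.61% of all genes and 3.62% lower, and QKO had 1 higher, Hoxc13, beside 14% of all genes and 6.59% higher. Hoxa4 passed the filter only through groups with G9a, and Hoxc13 only through groups other than the control line. Their places in these counts are a description. QKO had 3 called without control replicate 2 or without the libraries of high Snhg level. The members' median was -0.55 in G9a-KO against -0.15 over all genes, and -0.76 in QKO against -0.11.

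Averaged over the 4 backgrounds without doxycycline, limma called 0 of 11 members after loss of G9a (6.35% of all genes), of Setdb1 (2.67%) or of Suv39h1/2 (0.745%). At an unadjusted p under 0.05 there were 9, 6 and 5 members, beside 7290, 5145 and 5346 of 13817 genes. The test of Setdb1 loss by G9a state called 0 of 11 (0.97% of all genes), with 2 at an unadjusted p under 0.05 (1369 of 13817 genes). Without the libraries of high Snhg level that test called 1, Hoxb13 at 1.07 (adjusted p = 0.011), and Suv39h1/2 loss also called 1, Hoxb13 at -1.03 (adjusted p = 5.5e-06). At any fold, the averages for G9a loss were -0.85 for Hoxb13, -0.78 for Hoxa4, -0.53 for Hoxa3 and Hoxa5 and -0.44 for Hoxd1 (adjusted p = 0.0012 or less for each), and 7 of 11 members fell, as did 24.1% of all genes. Those of Hoxa3 and Hoxa4 are a description, since both reached 1 TPM here only in groups with G9a.

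Set beside each other, the average effects of the 8 members tested in both tables had the same sign for 6 after Setdb1 loss, 5 after G9a loss and 3 after Suv39h1/2 loss. The shares, 75%, 62.5% and 37.5%, compare with 70.7%, 71.1% and 58.8% over the other genes tested in both. Hoxa10 had opposite averages after G9a loss, -0.87 (adjusted p = 2e-07) and 0.34 (adjusted p = 0.0131). Hoxd13 had opposite averages after Setdb1 loss, 0.25 (adjusted p = 0.00647) and -0.52 (adjusted p = 0.00288). Differences between the tables were not tested, since they were normalised separately and differ in Dux genotype, transgene and, for most libraries, Snhg level.

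Doxycycline called no member in any genotype by limma. The background was 0.181% of all genes in the control line, 0.166% in Setdb1-KO, 0.449% in Suv39h1/2-DKO, 0.246% in Suv39h1/2 Setdb1-TKO, 0.955% in G9a-KO, 1.05% in G9a Setdb1-DKO, 0.456% in G9a Suv39h1/2-TKO and 0.413% in QKO. At an unadjusted p under 0.05 there were 1, 0, 0, 1, 0, 4, 0 and 0 members in the same order. Among all 13817 genes there were 834, 282, 864, 220, 1203, 2826, 1200 and 2226. The largest shift was that of Hoxb13 in G9a Setdb1-DKO, from 16.6 and 7.75 to 7.62 and 3.03 TPM (-1.07 ± 0.37 SE, adjusted p = 0.107). Without the libraries of high Snhg level 1 library is left on each side, and the difference was -1.03; neither group then has a spread of its own. The HoxA sum in that genotype was 4.72 and 3.26 TPM without doxycycline and 1.19 and 1.75 TPM with it.

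The promoters of the members that fell together differ widely in base composition. RefSeq promoters of GRCm38.p6, from 250 bases before to 50 after a gene's start, were found for 22 of the 38 members (24 promoters). Their median GC content was 57.7% against 52.7% over all 32851 promoters, with a median of 14.5 CpG sites against 7, and 50% held at least 15 sites against 34.6%. Below are 3 HoxA genes called lower in QKO, whose promoters run from CpG-rich to CpG-poor, and Hoxd13, which rose at any fold in the same cells. They are printed 5′ to 3′ on the strand of the gene, with CpG sites in capitals.
Hoxa5, chr6:52204538-52204837, minus strand: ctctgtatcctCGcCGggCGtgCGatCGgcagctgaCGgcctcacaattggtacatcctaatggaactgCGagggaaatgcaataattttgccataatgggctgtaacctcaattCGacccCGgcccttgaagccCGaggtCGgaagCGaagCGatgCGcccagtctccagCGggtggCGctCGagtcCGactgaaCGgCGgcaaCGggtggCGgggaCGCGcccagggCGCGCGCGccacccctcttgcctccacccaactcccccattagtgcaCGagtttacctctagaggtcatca
Hoxa7, chr6:52218524-52218823, minus strand: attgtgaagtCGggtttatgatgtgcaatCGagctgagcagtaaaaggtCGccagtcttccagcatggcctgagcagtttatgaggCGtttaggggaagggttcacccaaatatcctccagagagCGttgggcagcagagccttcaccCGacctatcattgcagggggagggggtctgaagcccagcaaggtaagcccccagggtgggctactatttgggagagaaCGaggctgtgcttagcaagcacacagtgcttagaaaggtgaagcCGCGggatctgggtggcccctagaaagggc
Hoxa9, chr6:52227321-52227620, minus strand: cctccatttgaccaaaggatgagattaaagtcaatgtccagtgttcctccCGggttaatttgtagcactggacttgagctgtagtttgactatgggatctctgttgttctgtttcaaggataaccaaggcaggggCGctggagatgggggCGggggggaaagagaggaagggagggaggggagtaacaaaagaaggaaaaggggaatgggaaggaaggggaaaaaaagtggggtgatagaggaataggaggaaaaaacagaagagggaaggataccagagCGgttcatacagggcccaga
Hoxd13, chr2:74667975-74668274, plus strand: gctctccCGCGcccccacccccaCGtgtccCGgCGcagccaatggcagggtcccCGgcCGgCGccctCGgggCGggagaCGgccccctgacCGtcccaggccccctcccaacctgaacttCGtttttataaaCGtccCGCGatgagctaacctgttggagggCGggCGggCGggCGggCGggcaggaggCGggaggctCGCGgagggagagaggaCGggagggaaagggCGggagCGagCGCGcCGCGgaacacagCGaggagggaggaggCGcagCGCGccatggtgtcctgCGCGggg
Hoxa5 has 29 CpG sites and a GC content of 61.7%, Hoxa7 has 9 sites and 55.7%, Hoxa9 has 4 sites and 49.7%, and Hoxd13 has 37 sites and 74.3%. Searched on both strands, the half-site AGGTCA of nuclear receptors, which include the retinoic acid receptors, was in 7 Hox promoters (29.2%; 16.3% of all promoters), Hoxa5 among them. The Cdx motif TTTATG was in 5 (20.8%; 11.9%), with 2 copies in Hoxa7, and TGATNNAT, a motif of Hox proteins with their Pbx cofactors, was in 4 (16.7%; 8.8%). Of the 10 HoxA promoters, each of these motifs was in 1 (10%), so AGGTCA and TTTATG were no more frequent there than among all promoters. Matches of different motifs were counted separately, whether or not they overlapped, and a match describes the letters only.

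Among the known activators of Hox genes, Cdx1 fell in each of the 4 comparisons of G9a-lacking cells with the controls in the first table. It had 11.8 and 10.1 TPM in the controls, 17.5 and 17.2 in Setdb1-KO, 1.15 and 0.902 in G9a-KO, 0.460 and 0.604 in G9a Setdb1-DKO, 2.60 and 2.18 in G9a Suv39h1/2-TKO and 1.26 and 1.18 in QKO. Its average log2 fold change with G9a loss was -2.55 in the first table (adjusted p = 6.64e-12) and -2.49 in the second (adjusted p = 5.05e-12). In the second table it rose in Setdb1-KO by 2.04 (adjusted p = 4.8e-05), from 4.17 and 3.67 to 18.7 and 19.8 TPM. The ParaHox gene Gsx1 fell in G9a-KO of the first table (log2 fold change -1.09, adjusted p = 0.000678). Of the 6 Cdx and ParaHox genes 3 were tested, and 2 were called lower in each of the 4 groups without G9a in the first table. Among all 13862 genes, 519 were called lower in G9a-KO, 665 in G9a Setdb1-DKO, 287 in G9a Suv39h1/2-TKO and 751 in QKO. The part of Cdx1 in the Hox values was not tested.

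Genes of the retinoic acid pathway moved in both directions. Of 16 tested in the first table, 3 were called higher and 3 lower in G9a-KO, and 0 higher and 2 lower in QKO. Among all 13862 genes, the higher/lower calls were 765/519 in G9a-KO and 1406/751 in QKO. Rarb, a receptor gene that retinoic acid itself induces, had 3.13 and 2.90 TPM in the controls, 0.856 and 1.13 in Setdb1-KO and 0.340 and 0.134 in QKO, with log2 fold changes of -1.01 (adjusted p = 0.000272) and -1.70 (adjusted p = 6.54e-07). Stra8, a gene of meiotic entry, fell by 1.89 in G9a-KO (adjusted p = 2.1e-09), from 330 and 345 to 89.4 and 91.1 TPM, while Cyp26a1, which degrades retinoic acid, rose by 1.72 (adjusted p = 5.68e-06). Of 13 such genes in the second table, 3 were higher and 2 lower in G9a-KO, where 424 and 678 of all 13817 genes were.

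Calls among the known repressors, activators and partners of Hox genes are listed beside the shares of all genes called in either direction. In the first table these shares were 6.28% in Setdb1-KO, 9.26% in G9a-KO and 15.6% in QKO. In the second they were 7.98% in G9a-KO and 14% in QKO. Of 32 Polycomb genes tested, 2 rose in G9a-KO of the first table, Bmi1 by 1.24 (adjusted p = 0.000199) and Cbx8 by 1.10 (adjusted p = 0.00413), and in QKO Bmi1 rose by 1.01 (adjusted p = 0.000638) and Cbx2 fell by 1.03 (adjusted p = 1.33e-05). Of 13 Trithorax and H3K27 demethylase genes, 1 was called lower in Setdb1-KO and in QKO of the first table, Psip1, at -1.04 (adjusted p = 0.000616) and -1.07 (adjusted p = 0.000201). Of 9 TALE cofactors of Hox proteins tested in the first table, 1 was called in QKO, Pbx3, at -1.03 (adjusted p = 5.33e-05), from 11.99 and 10.2 to 5.09 and 4.77 TPM. Of 7 tested in the second table, 2 were higher and 1 lower in QKO: Pknox2 at 1.23 (adjusted p = 0.000221), Meis1 at 1.04 (adjusted p = 0.0183) and Pbx4 at -1.16 (adjusted p = 0.007). Pknox2 was also called higher in G9a-KO there (1.08, adjusted p = 0.00137), from 1.39 and 1.78 to 5.15 and 3.85 TPM.

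Non-coding RNAs and genes beside the clusters were also measured. Of 16 Hox cluster non-coding RNAs listed 3 were tested, and 1 was called, Gm53, lower in G9a Suv39h1/2-TKO at -1.09 (adjusted p = 0.00707). In that group 2.07% of all genes were called lower. Halr1, beside HoxA, stayed between 47.2 and 73.8 TPM in the first table. Of 14 genes flanking the clusters tested in the first table, Calcoco2, a gene near HoxB, was called lower in G9a-KO at -1.28 (adjusted p = 6.8e-07) and in G9a Setdb1-DKO. In the second table Calcoco2 fell in G9a-KO by 1.71 (adjusted p = 0.000124) and rose in QKO by 1.25 (adjusted p = 0.00118). No flanking gene was called in QKO of the first table, where 15.6% of all genes were.

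Markers of other cell types moved with some of the same groups. All 12 primitive endoderm markers tested in the first table rose in G9a-KO, G9a Setdb1-DKO and G9a Suv39h1/2-TKO, and 2 of 12 rose in QKO. Their summed level was 422.9 and 426.1 TPM in the controls, 2155 and 1807 in G9a-KO and 790.7 and 584.7 in QKO, where the HoxA sum was lowest; in the Dux-KO QKO libraries it was 1940 and 1850. Their part in the Hox values was not tested. In G9a-KO of the second table, 4 of 12 rose, and in G9a Setdb1-DKO 0 did. Called higher among all 13862 genes of the first table were 765 in G9a-KO, 1328 in G9a Setdb1-DKO, 645 in G9a Suv39h1/2-TKO and 1406 in QKO. Among all 13817 genes of the second they were 424 in G9a-KO and 1015 in G9a Setdb1-DKO.

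Fibroblasts, which express many Hox genes, were checked by 17 markers, of which 8 were tested in the first table. Their sum was 14.7 and 13.6 TPM in the controls, 14.6 and 10.3 in QKO and 25.9 and 21.1 in the Dux-KO QKO libraries. The defining marker Col3a1 was at 0 in 12 of 18 libraries and at most 0.0328 TPM, and Prrx1 was at 0 in 12 of 18 and at most 0.055 TPM. Other markers of the list were present in all 18 libraries, among them Thy1 at 1.2 to 6.26 TPM, Twist1 at 1.31 to 3.93 TPM, Loxl1 at 0.787 to 4.15 TPM and Fbln2 at 0.433 to 4.97 TPM, and Lum reached 6.73 TPM. The part of these markers in the Hox values was not tested. In G9a-KO 2 markers were called lower, Loxl1 and Pdgfrb. For this and the lists that follow, the higher/lower calls among all 13862 genes were 571/300 in Setdb1-KO, 765/519 in G9a-KO and 1406/751 in QKO. Of 6 neural markers tested in the first table, 4 were lower in QKO, among them Olig2 at -2.79 (adjusted p = 1.12e-08), and 2 were higher and 2 lower in G9a-KO. Of 6 mesoderm markers tested 1 was called in Setdb1-KO, Hand1, higher by 1.297 (adjusted p = 2.71e-05), and none in QKO. Of 12 embryonic stem cell markers, 3 rose in QKO, Fbxo15 the most, by 3.55 (adjusted p = 7.55e-14).

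The other members were at or near the floor. Among HoxA, Hoxa6 and Hoxa11 peaked at 0.734 and 0.752 TPM in the first table. Among HoxB, Hoxb5 reached 1.32 TPM in control replicate 1 only, Hoxb2 1.16 TPM in a Setdb1-KO library and Hoxb7 1.21 TPM in a control, while Hoxb1, Hoxb3, Hoxb6 and Hoxb8 stayed below 1 TPM in every library. Hoxb4 was tested in the first table, from 0.906 and 1.26 TPM in the controls to 0.409 and 0.0807 TPM in QKO (-0.75, adjusted p = 0.0036). Hoxb9 was at 0.976 and 0.785 TPM in the controls and 0.177 and 0.275 TPM in G9a-KO (-0.62, adjusted p = 0.0278).

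In HoxC all 8 genes other than Hoxc13 stayed below 1 TPM, the highest being Hoxc4 at 0.680 TPM in a control of the second table. In HoxD, Hoxd1 reached 1.03 TPM in the first table, in a Dux-KO QKO library, and Hoxd9 0.896 TPM in G9a Setdb1-DKO. Hoxd8 and Hoxd9 were tested in the second table, where Hoxd8 fell in G9a-KO (-0.82, adjusted p = 0.039) and Hoxd9 in Suv39h1/2 Setdb1-TKO (-0.62, adjusted p = 0.0145). With the libraries of high Snhg level left out neither passed the test, at -0.41 (adjusted p = 0.233) and -0.58 (adjusted p = 0.0822). Hoxd3 and Hoxd4 overlap in the annotation, as do Hoxc5 and Hoxc6, so their low values are uncertain. Hoxd4, Hoxd10, Hoxd11 and Hoxd12 did not reach 1 TPM in any library of either table.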

How the data were processed

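The deposited values are TPM per gene, in 2 tables normalised separately by the authors; STAR 2.7.10b, Bowtie2 2.3.4.1, RSEM 1.3.1, SAMtools 1.9 and mm10 are named in the submitters' processing notes, with no role given. For annotation, strand setting and multi-mapping reads, the sources used here give nothing. Libraries were stranded polyA libraries read as paired ends, per the labels' protocols. Each table was fitted with limma 3.58.1 in R 4.3.3 (trend, empirical Bayes) on log2(TPM + 1), all groups in one fit with 9 and 16 residual degrees of freedom, over the 13862 and 13817 genes that reached 1 TPM in 2 or more libraries. A call needs a Benjamini-Hochberg adjusted p below 0.05 and a log2 fold change of 1 or more in size. The average loss of an enzyme is the mean of its 4 contrasts. Alternatives were a pseudocount of 0.1 TPM, no filter, median-ratio rescaling, replicate blocks, left-out libraries and the libraries of high Snhg level left out. Members called in any comparison are given per library, other members by range, and listed genes by calls. Members and gene lists were chosen with earlier results of these data known. Procedures were tested on simulated data, with changes placed only in genes of higher level than most members, so that test does not cover low genes. No library duplicated another. A gene that meets the naming rule is not reported here and is left out of the members' counts, sums and medians; it stayed in the fits.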

Additional observations from a re-analysis of the deposited data

Results flagged for a closer look

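The effect of Setdb1 loss differed between cells with and without G9a for 4 Hox genes of the first table, by a test of the difference itself on the log2(TPM + 1) scale, averaged over both Suv39h1/2 states. Hoxb13 had 0.798 ± 0.14 (SE, limma adjusted p = 0.000962), Hoxa4 0.714 ± 0.182 (adjusted p = 0.0116), Hoxa7 0.574 ± 0.155 (adjusted p = 0.0166) and Hoxa3 0.465 ± 0.147 (adjusted p = 0.0356). On that scale, which compresses low values, the fall of Hoxa3, Hoxa4 and Hoxa7 with Setdb1 loss was smaller without G9a. As a ratio of mean TPM that of Hoxa3 was not: 3.31-fold and 3.19-fold with G9a, 3.59-fold and 3.65-fold without it. Hoxb13 was 2.51-fold and 2.57-fold higher with Setdb1 loss without G9a. In the second table Hoxb13 had 0.92 ± 0.37 in the same test, not past the adjusted threshold.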

How the results depend on the processing

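Of 28 gene results called above, 14 kept their call under every alternative and 0 changed direction. A pseudocount of 0.1 TPM and the absence of a filter kept the calls of all 28. Rescaling by median ratios moved the median of all genes by up to 0.21 and took 5 below the fold, each with an adjusted p still below 0.05; of 121 Hox results past the adjusted threshold it turned the direction of 0 and took 3 out of it. In counts of called members it gave 0 in Setdb1-KO, and in G9a-KO of the second table it gave 1, with 0 in Suv39h1/2 Setdb1-TKO. It also moved the share of all genes' calls that were higher from 72.1% to 51.9% for Dux removal and from 65.6% to 78.4% in Setdb1-KO, and in the second table from 38.5% to 53.4% in G9a-KO, 33% to 50.5% in Suv39h1/2 Setdb1-TKO, 15.3% to 37.6% in Suv39h1/2-DKO, 45.2% to 56.2% in G9a Suv39h1/2-TKO, 47% to 57.2% in QKO, 14.6% to 28% for average Suv39h1/2 loss and 71.7% to 92.2% for doxycycline in G9a Setdb1-DKO.

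With the pseudocount of 0.1 TPM, which gives low values more weight, the first table had 4 members called in Setdb1-KO, 4 in Suv39h1/2 Setdb1-TKO, 6 in G9a-KO, 7 in G9a Setdb1-DKO, 1 for Dux removal, 4, 7 and 1 for average Setdb1, G9a and Suv39h1/2 loss and 2 in the test of Setdb1 loss by G9a state. The second had 3 in Suv39h1/2 Setdb1-TKO, 6 in G9a-KO, 6 in QKO, and 2 and 2 for average Setdb1 and G9a loss. No share over all genes is given for this pseudocount or for left-out libraries. Those counts are therefore not read as results about the members. At any fold, an alternative chosen after seeing the data, the first table had 7 in Setdb1-KO, 1 in Suv39h1/2-DKO, 7 in Suv39h1/2 Setdb1-TKO, 9 in G9a-KO, 10 in G9a Setdb1-DKO, 2 for Dux removal, 9, 9 and 5 for the averages and 4 in the test by G9a state. In that order, the genes higher/lower among all 13862 were 1729/2999, 136/166, 1911/2455, 2337/2507, 3251/3400, 4784/964, 3433/4956, 4233/3297, 1262/1149 and 1797/1177. The second had 1, 1 and 3 in Setdb1-KO, Suv39h1/2-DKO and Suv39h1/2 Setdb1-TKO, 5 in G9a-KO, 6 in G9a Setdb1-DKO, 3 in G9a Suv39h1/2-TKO, 6 in QKO, and 5, 8 and 1 for the averages. Among all 13817 genes, those higher/lower were 501/366, 312/599, 669/1037, 1225/1942, 2286/2286, 1171/1503, 2078/2662, 2167/1744, 3144/3328 and 1368/2483.

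Without the libraries of high Snhg level there were 3 in QKO, 1 for average Suv39h1/2 loss, 1 in the test by G9a state and 1 for doxycycline in G9a Setdb1-DKO; the cause was not tested. With 1 library left out at a time, a lone library being assumed to vary like the other groups, the counts ranged from 0 to 3 in Setdb1-KO, 0 to 1 in Suv39h1/2 Setdb1-TKO, 0 to 1 in G9a-KO, 3 to 4 in G9a Setdb1-DKO, 3 to 6 in G9a Suv39h1/2-TKO and 5 to 8 in QKO. In the second table they ranged from 0 to 1 in Setdb1-KO, 0 to 1 in Suv39h1/2 Setdb1-TKO, 2 to 3 in G9a-KO, 2 to 3 in G9a Setdb1-DKO, 1 to 3 in QKO and 0 to 1 for doxycycline in G9a Setdb1-DKO. A replicate block changed none of these counts of calls (7 in QKO with and without it); the labels tie the numbers to no shared culture. The correlation of same-numbered libraries' deviations ran from -0.06 to 0.62 over 36 pairs of groups in the first table (25 over 0.1). It ran from -0.65 to 0.75 over 120 in the second (66 over 0.1). Since not every pair was over 0.1, the numbers were not taken as pairing. This rule does not decide pairing within a line. In Setdb1-KO and G9a Setdb1-DKO, replicate 2 had the high Snhg level both without and with doxycycline. Doxycycline comparisons were made unpaired. Fits without the libraries of high Snhg level leave a single control library without doxycycline in the second table, so their comparisons with the controls rest on it. The unknown depth limits what can be said of genes near 0 TPM.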
